A study of Mus musculus with 6 samples.

Results

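The Hox genes of the 4 mouse clusters were examined in colonic tissue, as a readout of the position along the colon from which each library was drawn. Members were all rows whose gene name is Hoxa, Hoxb, Hoxc or Hoxd followed by a paralog number, which gave 32 of the 27202 genes in the table. They comprised 11 Hoxa, 9 Hoxb, 4 Hoxc and 8 Hoxd genes, and Hoxb1, Hoxc9, Hoxc10, Hoxc11, Hoxc12, Hoxc13 and Hoxd1 were not analysed here. RNA sequencing had been done on whole pieces of colon from 3 Nedd4l fl/fl Villin Cre animals (called cKO) and 3 Nedd4l fl/fl littermates (called WT), 8 to 10 weeks of age and on a C57BL/6J background. All 6 mice had received 2% dextran sulfate sodium (DSS), which injures the colonic lining, in their drinking water until tissue was taken on day 7. The WT mice thus carried the floxed alleles as well, no mouse without DSS was included here, and Villin Cre acts in the intestinal epithelium, which is 1 part of the tissue sequenced. The labels name the colon but not the segment.

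Hox genes encode homeodomain transcription factors that lie in clusters, and within a cluster their order matches the order in which they are used along the body axis. Low paralog numbers mark anterior and high numbers posterior positions, and paralog 13 genes mark the terminal hindgut, the future distal colon, rectum and anal region. In the adult gut this positional code is kept in both epithelium and mesenchyme, so Hox levels can be read as a record of segment. CDX factors of the intestinal epithelium bind and activate Hox genes, whereas Polycomb group proteins hold silent parts of the clusters closed.

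Hoxd13, Hoxd11 and Hoxd10 differed most among the libraries and Hoxa13 differed little, as described further on, and the 250 bases upstream of the RefSeq start (build GRCm38.p6) of Hoxd13, Hoxd10 and Hoxa13 are therefore printed. Capitals mark matches on either strand to TATAAA (the TATA box), TTTAT (a core that CDX and posterior HOX proteins can bind) or TTTACGAG (a longer paralog 13 form). The sequence of Hoxd13 lies at chr2:74667975-74668224 on the plus strand, that of Hoxd10 at chr2:74691641-74691890 on the plus strand, and that of Hoxa13 at chr6:52260881-52261130 on the minus strand.
Hoxd13: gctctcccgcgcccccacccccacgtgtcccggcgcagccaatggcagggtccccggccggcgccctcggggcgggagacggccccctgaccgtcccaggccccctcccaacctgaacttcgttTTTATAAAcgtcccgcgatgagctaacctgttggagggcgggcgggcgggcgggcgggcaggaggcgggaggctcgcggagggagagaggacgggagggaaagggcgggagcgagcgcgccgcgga
Hoxd10: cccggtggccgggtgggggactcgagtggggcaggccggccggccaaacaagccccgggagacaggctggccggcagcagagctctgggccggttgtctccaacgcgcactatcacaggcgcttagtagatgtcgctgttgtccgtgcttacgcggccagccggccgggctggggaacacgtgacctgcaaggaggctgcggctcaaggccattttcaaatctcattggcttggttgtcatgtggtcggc
Hoxa13: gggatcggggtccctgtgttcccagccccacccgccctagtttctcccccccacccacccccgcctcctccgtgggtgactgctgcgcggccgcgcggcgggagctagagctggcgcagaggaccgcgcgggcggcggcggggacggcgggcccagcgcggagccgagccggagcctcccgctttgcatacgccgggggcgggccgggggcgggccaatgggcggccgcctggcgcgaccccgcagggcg
The window of Hoxd13 held 1 capitalised run, in which TATAAA and TTTAT overlap each other and both strands match, and the windows of Hoxd10 and Hoxa13 held no match. RefSeq promoters matched 20 of the 32 Hox genes, 14 of them among the tested ones, with 22 start sites in all. TATAAA stood in 4 of these 22 windows against 12.4% of all 32851 windows, TTTAT in 9 against 37.3%, and TTTACGAG in 1 (Hoxb8) against 0.110%. The guanine and cytosine content was 74.4% for Hoxd13, 65.6% for Hoxd10 and 80.0% for Hoxa13, above the median of 52.4% over all windows. These matches describe letters in a window and not bound sites.

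The clusters also hold miRNA genes, and the mature 5-prime arms that share a seed (bases 2 to 8, in capitals) are printed because 1 of their genes, Mir196a-1, was among the genes whose libraries did not overlap between genotypes.
miR-196a-5p: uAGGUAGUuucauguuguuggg
miR-196b-5p: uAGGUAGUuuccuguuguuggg
miR-10a-5p: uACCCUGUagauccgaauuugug
miR-10b-5p: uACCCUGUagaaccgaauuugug
miR-196a-5p, whose known targets include Hoxb8, comes from chr11:96265187-96265208 between Hoxb13 and Hoxb9 and also from chr15:102973365-102973386 in the Hoxc cluster, both on the plus strand. miR-196b-5p lies in the Hoxa cluster at chr6:52230129-52230150 on the minus strand and shares its seed, with A12C as the only substitution, counted from 1 at the 5-prime end. miR-10a-5p lies at chr11:96317186-96317208 in the Hoxb cluster and miR-10b-5p at chr2:74726074-74726096 in the Hoxd cluster, both on the plus strand, and these share the other seed with U12A between them.

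The colonic libraries carried a strongly posterior Hox profile in both genotypes, led by Hoxb13. Levels were compared between genes as normalized count per kb of gene length, where a normalized count is the reads of a gene divided by 1 size factor per library. Hoxb13 lay between 1033 and 2046 per kb in the 6 libraries and stood above every other Hox gene in each of them. Hoxa13 followed at 308 to 431 per kb, then Hoxb9 at 236 to 301, Hoxa10 at 226 to 266 and Hoxa7 at 188 to 265. The ranges of Hoxb13 and Hoxa13 did not overlap, nor did those of Hoxa13 and Hoxb9, whereas those of Hoxb9, Hoxa10 and Hoxa7 overlapped. Hoxa6, Hoxa5 and Hoxa9 formed the next tier, with means of 158, 152 and 148 per kb and overlapping ranges.

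Each cluster had its own gradient. In Hoxa, on chromosome 6, the level per kb was low at Hoxa4 (mean 9.74), with means above 100 from Hoxa5 to Hoxa10, low again at Hoxa11 (mean 27.3) and highest at Hoxa13. In Hoxb, at chr11:96194316-96354012, the genes from Hoxb2 to Hoxb8 had means between 0.854 and 9.79 per kb, and only Hoxb9 and Hoxb13 stood high. The 4 Hoxc genes listed, at chr15:102967443-103036852, were near 0, with no value above 3.32 normalized counts in any library. In Hoxd, at chr2:74668310-74748442, Hoxd13 had a mean of 99.97 per kb and the other genes had means between 0.206 and 8.69. Coordinates are those of the table, in GRCm38. Several spans, introns included, overlap on the same strand: Hoxa3 with Hoxa4, Hoxa5 and Hoxa6, Hoxd3 with Hoxd4, and Hoxc5 with Hoxc6 and Hoxc8. Others overlap a gene on the opposite strand, such as Hoxa3 to Hoxa7 with Hoxaas3 and Hoxd8 with Hoxd3os1. Whether counting used strand is not stated, so the levels of all these genes are uncertain.

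**Figure D1:**
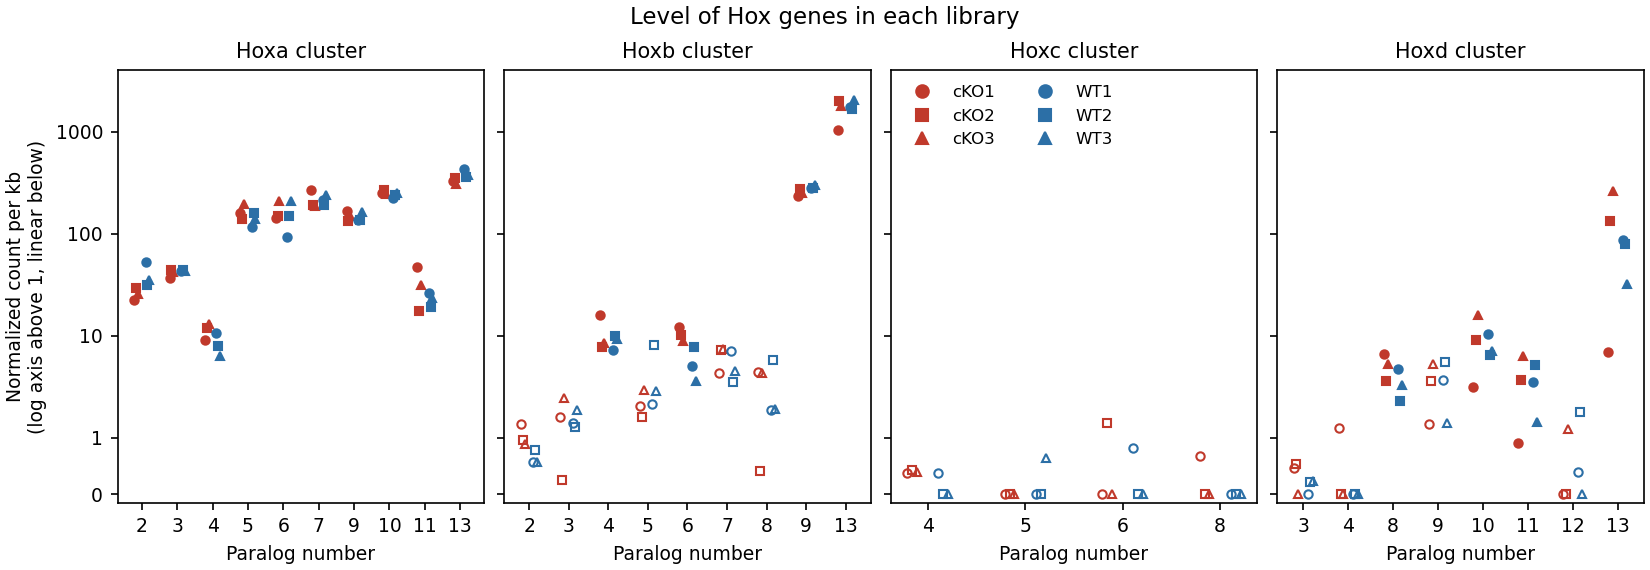
Normalized count per kb of gene length for Hox genes by paralog number, in 1 panel per cluster, with each point a library (red cKO, blue WT) and open symbols for genes below the mean of 10 required for testing. Hoxb13 stands highest at 1033 to 2046 per kb, the 4 Hoxc genes lie near 0, and Hoxd13 has the widest spread.

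Of the normalized counts on Hox genes, Hoxb13 alone took between 31.7% and 47.2% in a library, and the 3 paralog 13 genes together between 43.2% and 59.97%. Hoxa genes took 40.4% to 57.6%, Hoxb genes 41.6% to 55.4%, Hoxd genes 0.734% to 7.91% and Hoxc genes at most 0.0470%. The library of cKO1 held the lowest share of Hoxb, Hoxd and paralog 13 genes and the highest share of Hoxa genes. The summed level of the 32 genes was also lowest there, at 7187 normalized counts against 8580 to 9655 in the other libraries.

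The libraries were of similar depth, with totals of 14914367 to 17547270 steps, where a step is the smallest unit of which all values in a library are whole multiples (0.8996 to 1.106 normalized counts). Nedd4l, the targeted gene, stood at 476, 942 and 566 normalized counts in cKO1, cKO2 and cKO3 and at 1241, 1271 and 1266 in WT1, WT2 and WT3, without overlap (log2 fold change -0.99, SE 0.24, adjusted p = 0.225 by limma). The library of cKO2 correlated more with the WT libraries (mean r of 0.977 across genes, which are not independent replicates) than with those of its own genotype (0.966). The latter mean includes cKO1, which had the lowest mean r of the 6 libraries both with its own genotype (0.963) and with WT (0.948). For cKO3 the mean r was 0.975 with its own genotype and 0.973 with WT. The library of cKO1 was the lowest of the 6 for 22.9% of all tested genes and the highest for 24.4%, and it stands apart in several results below.

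Whether Hox levels differed with genotype was tested for the 18 Hox genes with a mean of at least 10 normalized counts (10 Hoxa, 4 Hoxb and 4 Hoxd). The other 14 Hox genes, including all 4 Hoxc genes, were below this level and were not tested. No Hox gene passed an adjusted p of 0.05 in limma, against a background of 0% of all 16246 tested genes, and the smallest adjusted p of a Hox gene was 0.344. At an unadjusted p under 0.05 there were 2 of 18, Hoxa13 and Hoxb6, against 14.0% of all tested genes. The 3 cKO values lay all above or all below the 3 WT values for 4 of 18 (22.2%), against 21.4% of all tested genes. The log2 fold change was above 0 for 11 and below 0 for 7 Hox genes, with a median of 0.07 against 0.00 over all tested genes. Since 3 libraries per genotype were compared, the exact permutation test could reach no two-sided p below 0.1, and all p-values measure only the spread between these 6 mice.

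By paralog number the median log2 fold change was 0.05 for the 4 tested genes of paralogs 1 to 4, 0.21 for the 7 of paralogs 5 to 9 and 0.01 for the 7 of paralogs 10 to 13. By cluster it was 0.07 for Hoxa, 0.02 for Hoxb and 0.04 for Hoxd. The standard deviation within genotypes on the log2 scale had a median of 0.23 for Hoxa, 0.39 for Hoxb and 0.95 for Hoxd, against 0.20 over all tested genes. Hoxd10, Hoxd11 and Hoxd13, at 0.81, 1.10 and 2.02, set the Hoxd median, whereas Hoxd8 at 0.44 lay below Hoxa6 at 0.46 and Hoxa11 at 0.52.

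**Figure D2:**
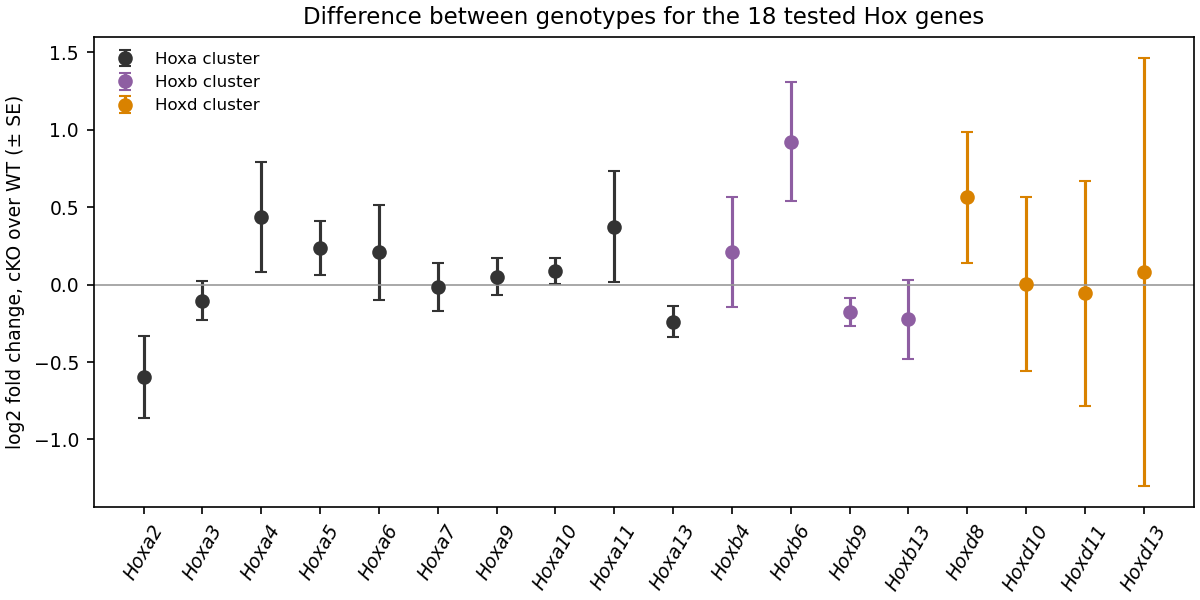
Log2 fold change of cKO over WT on the log2(normalized count + 1) scale for the 18 tested Hox genes, ordered by cluster and paralog number, with bars for the SE. Hoxa13 and Hoxb9 lie below 0 with short bars, Hoxb6 lies highest at 0.92, and Hoxd13 has the widest bar at an SE of 1.38.

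Among the paralog 13 genes, Hoxb13, a marker of distal colon and rectal epithelium, stood at 2279, 4441 and 3937 normalized counts in cKO1, cKO2 and cKO3 and at 3820, 3694 and 4513 in WT1, WT2 and WT3. Its lowest value was in cKO1 and the other 5 libraries lay close together, with both genotypes overlapping. The log2 fold change was -0.23 (SE 0.25, adjusted p = 0.706 by limma), and without cKO1 it was 0.07 (adjusted p = 0.845).

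Hoxa13, which patterns the hindgut and is required with Hoxd13 for the terminal gut and urogenital tract, stood at 810, 869 and 762 normalized counts in the cKO libraries and at 1067, 896 and 926 in the WT libraries. All cKO values were below all WT values, with cKO2 and WT2 the nearest pair. The log2 fold change was -0.24 (SE 0.10, unadjusted p = 0.042, adjusted p = 0.344 by limma), and the exact permutation p was 0.1, the smallest it can be.

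Hoxd13, known for its role in digits and in the anal sphincter, stood at 17.3, 334 and 651 normalized counts in cKO1, cKO2 and cKO3 and at 213, 195 and 78.9 in WT1, WT2 and WT3. The cKO mice held both the lowest and the highest value, 37.7-fold apart, and the WT values lay between them. The log2 fold change was 0.08 (SE 1.38, adjusted p = 0.983 by limma). Without cKO1 it was 1.64 (adjusted p = 0.412) and without cKO3 it was -0.94 (adjusted p = 0.784). The standard deviation of Hoxd13 within genotypes was 2.02 on the log2 scale, at the 99.8th percentile of all tested genes.

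The neighbours of Hoxd13 within the cluster took the same order at the extremes. Hoxd11 stood at 3.83, 15.5 and 26.8 normalized counts in cKO1, cKO2 and cKO3 and at 14.8, 21.6 and 5.99 in WT1, WT2 and WT3. Hoxd10 stood at 5.75, 16.6 and 28.9 in the cKO libraries and at 18.8, 11.7 and 12.98 in the WT libraries. Both were lowest in cKO1 and highest in cKO3, as was Hoxd13, and both genotypes overlapped. The log2 fold changes were -0.06 for Hoxd11 (SE 0.72, adjusted p = 0.976 by limma) and 0.01 for Hoxd10 (SE 0.56, adjusted p = 0.998). Without cKO1 they were 0.66 for Hoxd11 (adjusted p = 0.675) and 0.59 for Hoxd10 (adjusted p = 0.622). Hoxd10 without cKO3 was -0.48, and Hoxd11 without cKO3 was -0.60.

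Hoxd12, between Hoxd13 and Hoxd11, was listed at 3.09 normalized counts in cKO3, 0.988 in WT1 and 4.498 in WT2 and at 0 in the other 3 libraries. Evx2, a homeobox gene that directly flanks Hoxd13 and is known to share its enhancers, stood at 1.92, 14.4 and 42.3 in cKO1, cKO2 and cKO3 and at 17.8, 20.7 and 5.99 in WT1, WT2 and WT3. Evx2 was thus also lowest in cKO1 and highest in cKO3, and WT3 was its lowest WT library, as for Hoxd13 and Hoxd11 (log2 fold change -0.18, SE 1.00, adjusted p = 0.945 by limma). Toward the other end of the cluster Hoxd8 did not keep this order. It was highest in cKO1 at 18.2 normalized counts and lowest in WT2 at 6.30 (log2 fold change 0.56, SE 0.42, adjusted p = 0.557 by limma). Hoxd9, which was below the level for testing, was lowest in cKO1 at 2.88, with 3.00 in WT3. Its highest value was 11.7 in WT2, close to 11.3 in cKO3. In bulk tissue, fewer cells of a type and less RNA per cell cannot be told apart.

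**Figure D3:**
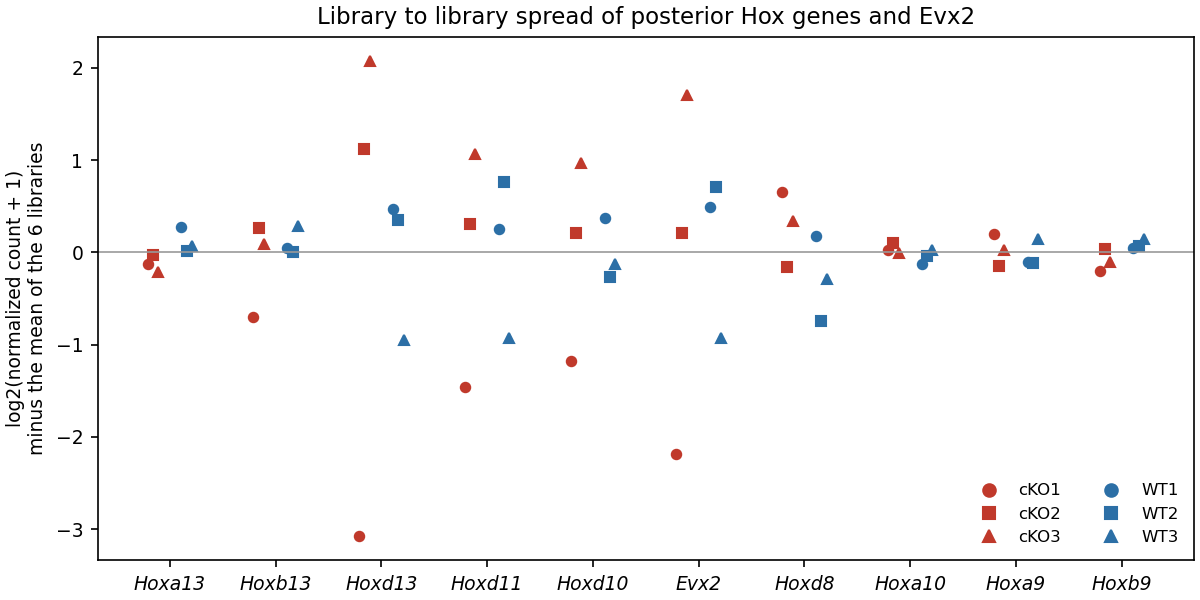
Log2(normalized count + 1) minus the mean of the 6 libraries for paralog 13 genes, 5-prime Hoxd genes, Evx2 and 4 other Hox genes, with each point a library (red cKO, blue WT). cKO1 is lowest and cKO3 highest for Hoxd13, Hoxd11, Hoxd10 and Evx2, while Hoxa13, Hoxa10, Hoxa9 and Hoxb9 stay within 0.3 of their means.

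The Hoxa genes of paralogs 10 and 11 separated less. Hoxa10 stood at 824, 869 and 805 normalized counts in the cKO libraries and at 740, 789 and 825 in the WT libraries, with overlap and a log2 fold change of 0.09 (SE 0.08, adjusted p = 0.653 by limma). Hoxa11 stood at 107, 39.8 and 71.2 in cKO1, cKO2 and cKO3 and at 59.3, 44.1 and 52.9 in WT1, WT2 and WT3, so that cKO mice held both its highest and its lowest value. Its log2 fold change was 0.37 (SE 0.36, adjusted p = 0.648 by limma) and it was 0.04 without cKO1 (adjusted p = 0.973) and 0.75 without cKO2 (adjusted p = 0.242). Hoxa11 overlaps Hoxa11os on the opposite strand, so reads of these genes may be mixed.

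Among the 11 tested genes of paralogs 1 to 9, the cKO and WT values did not overlap for 3, against 21.4% of all tested genes. Hoxa2, a patterning gene of the hindbrain, stood at 39.3, 52.0 and 45.4 normalized counts in the cKO libraries and at 92.8, 55.8 and 62.9 in the WT libraries, all cKO values being lower (log2 fold change -0.59, SE 0.27, adjusted p = 0.365 by limma), and without WT1 its log2 fold change was -0.38 (adjusted p = 0.585). Hoxb9, a trunk gene, stood at 609, 713 and 649 in the cKO libraries and at 722, 730 and 774 in the WT libraries, again with all cKO values lower (log2 fold change -0.18, SE 0.09, adjusted p = 0.421 by limma).

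Hoxb6 stood at 24.0, 19.9 and 17.54 normalized counts in cKO1, cKO2 and cKO3 and at 9.88, 15.3 and 6.99 in WT1, WT2 and WT3. All its cKO values were above all WT values, at a low number of reads (log2 fold change 0.92, SE 0.38, unadjusted p = 0.043, adjusted p = 0.346 by limma), and its span overlaps Hoxb5os on the opposite strand. Hoxa5, a gene of lung and gut mesenchyme and the next by p, stood at 299, 262 and 363 in the cKO libraries and at 218, 302 and 263 in the WT libraries, with overlap (log2 fold change 0.24, SE 0.17, adjusted p = 0.548 by limma), and its log2 fold change was 0.11 without cKO3, 0.12 without WT1 and 0.42 with array weights. The other tested genes of paralogs 1 to 9 (Hoxa3, Hoxa4, Hoxa6, Hoxa7, Hoxa9, Hoxb4 and Hoxd8) overlapped between genotypes, with log2 fold changes between -0.10 and 0.56.

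A posterior level was computed for each library as the mean over the 7 tested genes of paralogs 10 to 13 of log2(normalized count + 1) minus the mean of the gene over the 6 libraries. It was -0.81, 0.20 and 0.61 in cKO1, cKO2 and cKO3 and 0.19, 0.06 and -0.25 in WT1, WT2 and WT3. For Hoxd10, Hoxd11 and Hoxd13 alone, 3 of these 7, it was -1.90, 0.55 and 1.37 in the cKO libraries. In the WT libraries it was 0.37, 0.28 and -0.67 for these 3. At its extremes, in cKO1 and cKO3, the posterior level thus came nearly all from these 3 genes, of which Hoxd10 and Hoxd11 had few reads. The other posterior genes did not take 1 direction in cKO1, where Hoxb13 was lowest and Hoxa11 highest. The same level for the 11 tested genes of paralogs 1 to 9 was 0.15, -0.01 and 0.10 in the cKO libraries and -0.08, -0.08 and -0.07 in the WT libraries. The posterior level minus that of paralogs 1 to 9 was -0.95, 0.22 and 0.51 in the cKO libraries and 0.27, 0.14 and -0.18 in the WT libraries. For the posterior level and for this difference the cKO libraries spanned the WT libraries on both sides, whereas for paralogs 1 to 9 all 3 cKO values lay above all 3 WT values, by 0.16 on average. The highest log2 fold changes among paralogs 1 to 9 were those of Hoxb6 (0.92), Hoxd8 (0.56) and Hoxa4 (0.44), which had few reads. The rest ran from -0.59 (Hoxa2) to 0.24 (Hoxa5).

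The mean difference in this posterior minus anterior value between genotypes, -0.15, was not stable. It was 0.28 without cKO1, -0.45 without cKO3 and 0.07 when only members averaging 50 or more entered. By part, cKO minus WT was 0.004 for paralogs 10 to 13 and 0.16 for paralogs 1 to 9. Of the 18 tested Hox genes, cKO1 was the lowest library for 7, against 22.9% of all tested genes. Of these, 4 (Hoxb13, Hoxd10, Hoxd11 and Hoxd13) were among the 7 of paralogs 10 to 13. It was the highest library for 6, against 24.4% of all tested genes, namely the posterior gene Hoxa11 and Hoxa7, Hoxa9, Hoxb4, Hoxb6 and Hoxd8. The library of cKO3 was also the highest for 6 of the 18, against 11.3% of all tested genes, and the lowest for 2, against 13.7%. The Hoxd level alone was -1.26 in cKO1 and 1.11 in cKO3, with 0.37 in cKO2 and 0.32, 0.03 and -0.57 in WT1, WT2 and WT3, whereas the Hoxa level lay between -0.08 and 0.08 in all 6 libraries.

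The genes outside the clusters that mark colon segments were read for the same purpose. None passed an adjusted p of 0.05. Of the 4 tested genes listed as distal (Prac1 was not listed in the table), Insl5, a hormone of distal colonic L cells, stood at 241, 1019 and 747 normalized counts in cKO1, cKO2 and cKO3 and at 982, 802 and 834 in WT1, WT2 and WT3. Cldn8, a sealing claudin of the distal colon, stood at 1493, 2888 and 3256 in the cKO libraries and at 3416, 2859 and 3756 in the WT libraries. Both genes were lowest in cKO1, as were Hoxb13, Hoxd13 and Aqp4 (listed as proximal), against 22.9% of all tested genes. Both genes overlapped between genotypes (log2 fold changes -0.61, SE 0.54, for Insl5 and -0.46, SE 0.31, for Cldn8).

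The other genes listed as distal did not follow that order. Scnn1b and Scnn1g encode subunits of the epithelial sodium channel, a known substrate of NEDD4L. Scnn1b stood at 108, 73.0 and 95.9 normalized counts in the cKO libraries and at 47.4, 17.1 and 39.9 in the WT libraries (log2 fold change 1.48, SE 0.39, adjusted p = 0.227 by limma). Scnn1g stood at 98.7, 80.7 and 80.5 in the cKO libraries and at 26.7, 14.4 and 22.0 in the WT libraries (log2 fold change 2.03, SE 0.29, adjusted p = 0.116 by limma). All cKO values were above all WT values for both, and cKO1, the lowest library for Hoxd13, was the highest for both.

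Of the 4 genes listed as proximal, Isx, a homeobox gene of the intestinal epithelium, stood at 915, 531 and 657 normalized counts in cKO1, cKO2 and cKO3 and at 235, 264 and 235 in WT1, WT2 and WT3, with all cKO values higher (log2 fold change 1.48, SE 0.19, adjusted p = 0.116 by limma). Aqp4, a water channel, stood at 13063, 19061 and 17714 in the cKO libraries and at 20526, 22551 and 20868 in the WT libraries, with all cKO values lower (log2 fold change -0.38, SE 0.14, adjusted p = 0.316 by limma). The genes listed as proximal thus did not take 1 direction. Cyp2c55, a cytochrome P450, ranged from 24.8 in cKO3 to 5528 in WT1, and its other values were 316 in cKO1, 2221 in cKO2, 1242 in WT2 and 843 in WT3 (log2 fold change -2.77, SE 1.85, adjusted p = 0.535 by limma). Mep1b, a brush border protease, lay between 1390 and 1761 in all libraries (log2 fold change 0.11, SE 0.09, adjusted p = 0.612 by limma).

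**Figure D4:**
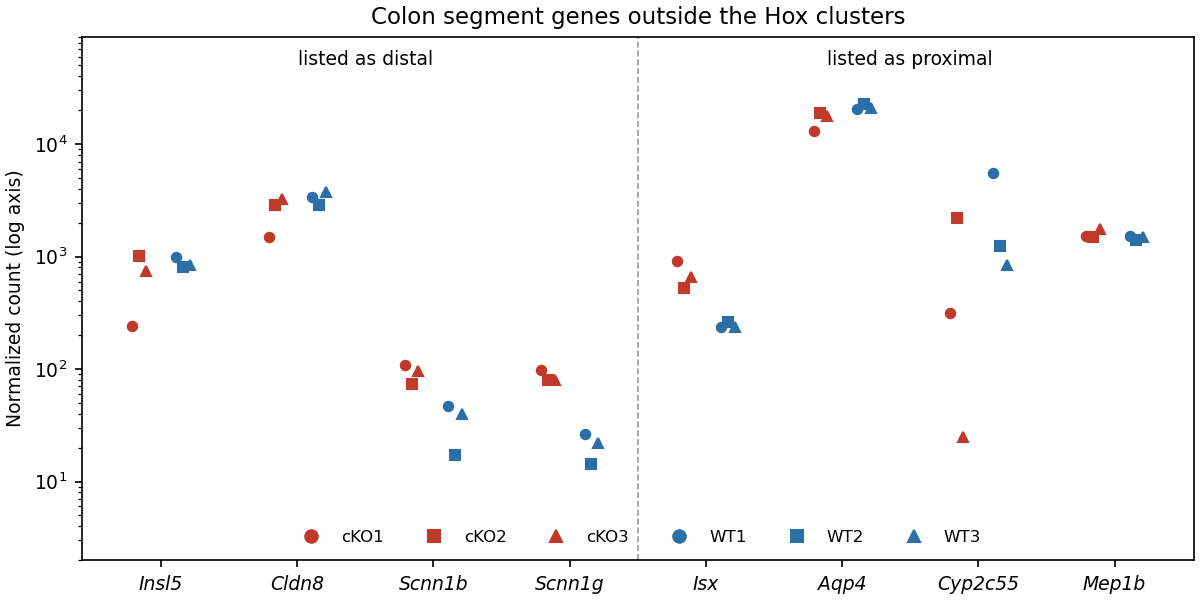
Normalized counts on a log axis of 4 genes listed as distal and 4 listed as proximal, with each point a library (red cKO, blue WT). cKO1 is lowest for Insl5, Cldn8 and Aqp4, all cKO points lie above all WT points for Scnn1b, Scnn1g and Isx, and Cyp2c55 ranges from 24.8 to 5528.

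The noncoding genes of the clusters were described in the same way. All 6 tested ones had a log2 fold change below 0 (median -0.25), 2 of 6 did not overlap between genotypes, against 21.4% of all tested genes, and 0 were called. Hottip, a noncoding RNA beside Hoxa13 that is known to act on 5-prime Hoxa genes, stood at 132, 312 and 248 normalized counts in cKO1, cKO2 and cKO3 and at 498, 302 and 388 in WT1, WT2 and WT3, lowest in cKO1 and with overlap (log2 fold change -0.84, SE 0.34, adjusted p = 0.351 by limma). Hoxa11os, the antisense transcript of Hoxa11, stood at 602, 760 and 729 in the cKO libraries and at 766, 829 and 913 in the WT libraries, all cKO values being lower (log2 fold change -0.27, SE 0.12, adjusted p = 0.361 by limma). The log2 fold changes of Hoxaas2, Hoxaas3 and Hotairm1 were -0.22 (SE 0.29), -0.22 (SE 0.17) and -0.12 (SE 0.41).

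Mir196a-1, the gene of miR-196a-5p printed above, stood at 78.6, 133 and 130 normalized counts in cKO1, cKO2 and cKO3 and at 164, 150 and 146 in WT1, WT2 and WT3. All its cKO values were lower (log2 fold change -0.46, SE 0.23, adjusted p = 0.403 by limma). The gene model has 102 bases and the kit named for the libraries is not one for small RNA, so these reads may come from a longer transcript through the site, and the mature miRNA was not measured. The coding genes on either side of it in the cluster, Hoxb13 and Hoxb9, were also lowest in cKO1.

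The regulators of the hindgut code did not pass the test either (0 of 6 tested, 2 with a log2 fold change above and 4 below 0). Cdx1, an epithelial CDX factor, stood at 4816, 6617 and 6058 normalized counts in the cKO libraries and at 6181, 7484 and 6935 in the WT libraries (log2 fold change -0.24, SE 0.13, adjusted p = 0.427 by limma). It was lowest in cKO1 and overlapped between genotypes.

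Cdx2 stood at 2257, 2378 and 1666 normalized counts in cKO1, cKO2 and cKO3 and at 2141, 2258 and 2120 in WT1, WT2 and WT3 (log2 fold change -0.07, SE 0.13), so that cKO1 was not its lowest library. Gdf11, a ligand that sets the trunk to tail switch in the embryo, stood at 107, 58.6 and 45.4 in the cKO libraries and at 32.6, 33.3 and 55.9 in the WT libraries (log2 fold change 0.73, SE 0.37, adjusted p = 0.413 by limma). The retinoic acid receptors Rara and Rarg, which mediate the signal that opens anterior Hox genes, had log2 fold changes of -0.05 (SE 0.15) and 0.27 (SE 0.17).

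Of the cofactors that bind DNA together with HOX proteins, 2 of 8 tested had a log2 fold change above 0 and 0 were called. These were Pknox2 (0.96, SE 0.40, adjusted p = 0.344 by limma) and Pbx2 (0.17, SE 0.09, adjusted p = 0.418). For these 2 of 8 all cKO values lay above all WT values, against 21.4% of all tested genes without overlap in either direction. Of the 15 chromatin regulators of Hox clusters, 8 had a log2 fold change above and 7 below 0, and 0 were called. The smallest p-values were those of Ezh2, the methyltransferase of Polycomb complex PRC2 (-0.37, SE 0.09, adjusted p = 0.211 by limma), and Wdr5, a subunit of MLL complexes (-0.30, SE 0.10, adjusted p = 0.289), with no overlap between genotypes for either. Of the 15, the cKO values lay all above the WT values for 1 and all below for 3, against 21.4% of all tested genes without overlap. Of the 12 coding genes listed that flank the clusters, 7 had a log2 fold change above and 5 below 0, with 0 called. Those with the smallest p were Cbx5, a heterochromatin protein (-0.35, SE 0.09, adjusted p = 0.219 by limma), and Evx1, which lies beyond Hoxa13 (0.69, SE 0.26, adjusted p = 0.324).

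Since Hox genes are used in epithelium and mesenchyme, the levels of cell type markers were read in the same libraries. All 7 fibroblast genes had a log2 fold change above 0 (median 0.78), 4 of 7 did not overlap between genotypes, against 21.4% of all tested genes, and 0 were called. Their summed level was 43363 normalized counts in cKO1, 21839 in cKO2 and 23316 in cKO3, against 11110 to 18907 in the WT libraries. The smallest p-values in the list were those of Col1a2 (log2 fold change 0.97, SE 0.26, adjusted p = 0.265 by limma) and Col1a1 (1.14, SE 0.32, adjusted p = 0.280). The library of cKO1 was thus highest for fibroblast collagen genes and lowest for Hoxb13 and Hoxd13. All 7 smooth muscle genes had a log2 fold change below 0 (median -0.47) with overlap, and their summed level ranged from 5683 to 11162 in the cKO and from 5117 to 21433 in the WT libraries. The smallest p-values in that list were those of Tagln (log2 fold change -0.47, SE 0.34) and Actg2 (-0.72, SE 0.70). The part of these cell types in the Hox results was not tested.

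The 7 epithelial genes summed to between 178613 and 204233 in the cKO and between 193365 and 216414 in the WT libraries, with 2 log2 fold changes above and 5 below 0, the smallest p-values being those of the keratins Krt19 (-0.22, SE 0.10) and Krt8 (-0.19, SE 0.10). The 7 leukocyte genes (5 above, 2 below 0) summed to 9145 in cKO1 and to between 5073 and 6106 in the other 5 libraries. S100a8, a neutrophil gene, stood at 2708, 31.0 and 417 normalized counts in cKO1, cKO2 and cKO3 and at 12.8, 38.7 and 29.0 in WT1, WT2 and WT3 (log2 fold change 3.70, SE 1.60, adjusted p = 0.374 by limma). Ly6g stood at 2486, 2832 and 2200 in the cKO libraries and at 2829, 3136 and 3064 in the WT libraries (log2 fold change -0.27, SE 0.11). It was the largest part of each WT sum and did not follow S100a8, so the sum is an uncertain measure of leukocytes. Among squamous genes of the anal canal, of which 3 were tested, Krt13 stood at 184, 24.3 and 42.3 in the cKO libraries and at 10.9, 12.6 and 12.0 in the WT libraries (log2 fold change 2.20, SE 0.68, adjusted p = 0.282 by limma), and Krt10 had a log2 fold change of -0.14 (SE 0.25). Krt14 was also highest in cKO1, at 46.0 against 1.11 to 13.5 in the other libraries (log2 fold change -0.29, SE 1.06), whereas Krt10 was lowest there at 32.6. The list summed to 287 in cKO1 and to between 59.3 and 101 in the other libraries, Krt5 was not listed in the table, and Krt4 and Krt1 did not exceed 2.70 in any library.

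Of the 8 small intestinal genes, Sis, Lct, Apoa4 and Fabp1 lay between 0 and 4.42 normalized counts in all libraries. Gata4 lay between 1.11 and 7.67. The 3 tested genes of that list lay higher, and 0 were called. Slc10a2 stood at 156 in cKO1 and 67.0 in cKO3, against 14.4 to 27.7 in the other libraries. Fabp6 was highest in cKO3 at 163 and lowest in cKO1 at 27.8, against 56.7 to 75.9 in the other libraries. Alpi was highest in cKO2 at 40.9 and lowest in cKO3 at 10.3. The log2 fold changes were 1.35 (SE 0.82) for Slc10a2, -0.01 (SE 0.59) for Fabp6 and -0.37 (SE 0.51) for Alpi. The lists of enteric neurons and glia (1 of 4 tested above 0) and of adipocytes (2 of 2 above 0) also had 0 called. In the first the smallest p-values were those of Ret (log2 fold change 0.77, SE 0.54) and Uchl1 (-0.51, SE 0.49), and in the second those of Cidec (0.26, SE 0.32) and Fabp4 (0.15, SE 0.30). The summed levels of both lists overlapped, at 102 to 353 and 234 to 291 in the cKO libraries and at 125 to 264 and 153 to 310 in the WT libraries.

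**Figure D5:**
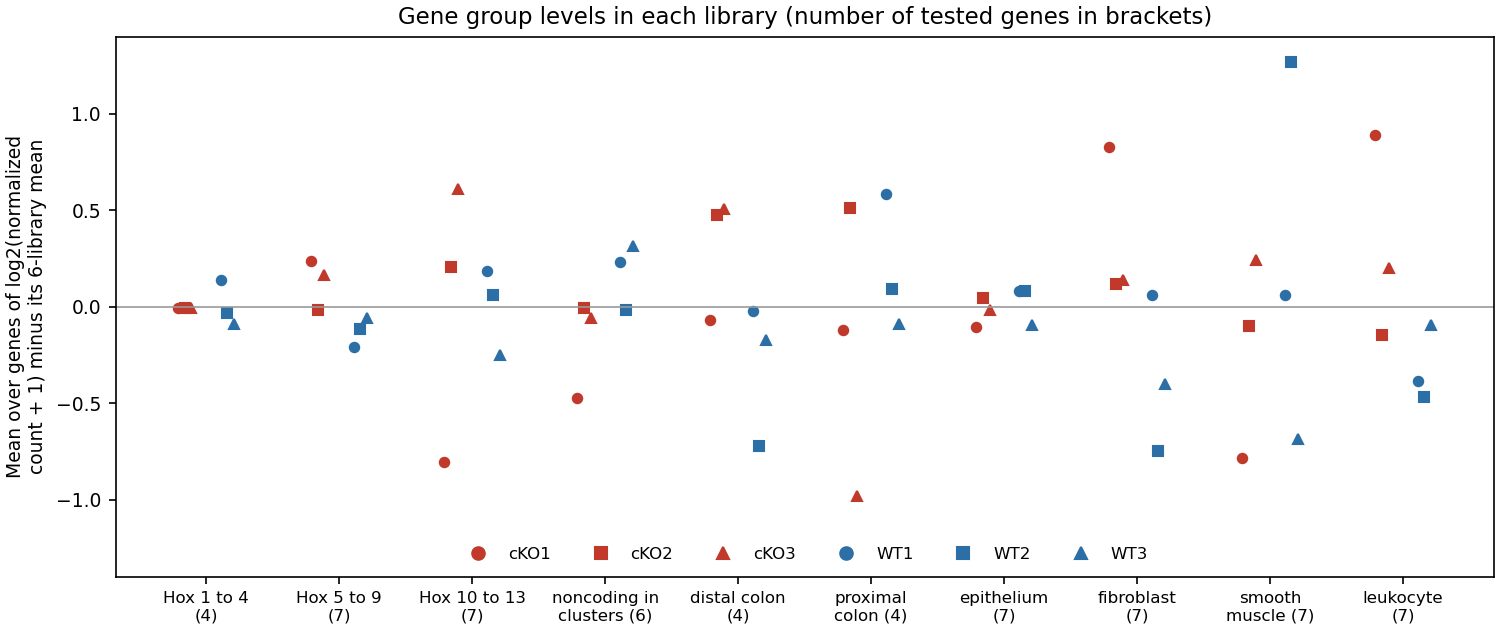
Mean over the tested genes of a group of log2(normalized count + 1) minus the 6-library mean of each gene, with each point a library (red cKO, blue WT). cKO1 is lowest for paralogs 10 to 13 at -0.81, nearly all of it from Hoxd10, Hoxd11 and Hoxd13 (-1.90 alone, not drawn). It is highest for fibroblast and leukocyte genes, and the groups of paralogs 1 to 4 and of epithelium stay within 0.15 of 0.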

How the data were processed

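Colonic RNA of 6 mice was read from 1 table. Deposited values are normalized counts, a signal made by the authors as reads per gene over 1 size factor per library. The processing notes name HISAT2 2.0.5 and featureCounts 1.5.0-p3 and a human build, whereas 31 of 32 Hox genes had the coordinates of GENCODE M21 on GRCm38 (all but Hoxd4). The log2 fold changes and p-values that the authors deposited were not used.

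Values were transformed to log2(value + 1), which understates changes of low genes. Genes averaging 10 or more (16246) were fitted with limma 3.58.1 (R 4.3.3, lmFit, eBayes with trend and robust, Benjamini-Hochberg over all genes, threshold 0.05), after a check on simulated data. The count models named in the design were not run. Named genes were all tested members of paralogs 10 to 13, the highest per kb in each cluster, those without overlap, the 5 smallest p-values, and, per list, the 2 smallest p-values or all segment, hindgut and noncoding genes; any further gene was picked with its values in view. Items withheld from the text are not reported here, though they stay in the counts. The members and the hand-written lists were chosen with earlier results of these data known. Promoter and miRNA sequences are from RefSeq. Alternatives were other pseudocounts, filters, scalings, weights, a replicate block and leaving out each library. Figures were drawn with matplotlib 3.10.9.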

Additional observations from a re-analysis of the deposited data

How the results depend on the processing

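Over 15 alternatives, 0 Hox genes were called in any, and the smallest adjusted p of a Hox gene was 0.0737. Of 162 log2 fold changes recomputed for 11 Hox genes, 148 kept their direction. The 14 that did not belonged to Hoxb13 (1), Hoxd10 (5), Hoxd11 (5) and Hoxd13 (3). Hoxd11 was 0.0115 with a pseudocount of 8 and 0.92 with array weights, and Hoxd10 was -0.00447 with a pseudocount of 0.5. With single libraries left out, Hoxb13 ran from -0.41 to 0.0664, Hoxd10 from -0.48 to 0.59, Hoxd11 from -0.60 to 0.66 and Hoxd13 from -0.94 to 1.64, while Hoxa10 ran from 0.04 (without WT1) to 0.12, Hoxa11 from 0.04 to 0.75, Hoxa5 from 0.11 to 0.35 and Hoxa2 from -0.74 to -0.38. Over all genes, 0 were called higher and 0 lower, against 7 and 23 with no filter on low values and 262 and 369 with array weights, which weighted cKO3 at 4.39 and cKO1 at 0.414. Leaving out single libraries gave 0 to 70 higher and 0 to 52 lower, the highest without cKO2 and 2 and 22 without cKO1; the cause was not tested. The median log2 fold change of the Hox genes, 0.07 at first, was 0.21 with array weights, 0.17 without WT2 and 0.04 without cKO3. With the replicate number as a block it is 0.07 by construction in this balanced design, and 0 genes were called in all. Same-numbered mice did not deviate together in expression (correlations -0.029, -0.090 and -0.056), which cannot show whether the numbers stand for a pairing. The count tests listed among the alternatives were not run. Genes of few reads, such as Hoxd11 and Hoxb6, have wide errors at this depth.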
